A study of Mus musculus with 2 samples.

Results

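The 10 genes described here are textbook markers of endothelial cells, the cells that line blood vessels: Cdh5, Pecam1, Kdr, Cldn5, Flt1, Tek, Tie1, Eng, Cd34 and Emcn. They were read by symbol among the 31053 genes of 2 single-cell libraries of cultured mouse brain pericytes, and they were chosen by their measured levels: Cdh5 and Eng were known to be high at passage 5 (PC5) and Cd34 at passage 20 (PC20). The levels of these 3 genes in each library are therefore given as a description, and the question asked of the data was whether they came with the other endothelial genes in the same cells. All 10 genes were in the files, and 5 of them (Cdh5, Eng, Kdr, Flt1 and Cd34) were detected in 10% or more of the cells of 1 or both libraries, as were 10504 genes in all. A UMI is a molecular identifier that counts 1 captured RNA molecule.

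Pericytes are the mural cells that wrap brain capillaries and lie against the endothelium. The cells came from pooled brains of 6 female wild-type C57BL/6N mice of 6 to 8 weeks per isolation, with the olfactory bulb, cerebellum and medulla removed. They were grown on collagen in endothelial cell growth medium in the first passages and in pericyte medium after that, no sorting step is described for them, and PC5 and PC20 were separate isolations according to the study's methods. The deposited design text can also be read as a single isolation. Each passage is 1 library in either case, so passage, isolation and library cannot be told apart, no test between them was possible, and all intervals below are 95% intervals that cover counting error only. After leaving out cells with 1000 or fewer genes or at least 20% mitochondrial UMIs, 9950 of 10629 barcodes were kept in PC5 and 4749 of 4884 in PC20. The median depth was 21700 UMIs in PC5 cells and 33424 in PC20 cells. The libraries shared 20 barcodes, all kept in both, and these held 55 Cdh5 UMIs in PC5 and none in PC20, and 180 Cd34 UMIs in PC20 and none in PC5. To set shares of cells side by side, each cell was thinned to 10500 UMIs, which left 8847 PC5 cells and 4474 PC20 cells, and 1103 and 275 cells were too shallow.

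The label of the cells was set against their markers. Pdgfrb, the receptor through which endothelial PDGF-B recruits pericytes, was at 44.6 UMIs per 1000000 UMIs of the library (CPM) in PC5 and 5.43 CPM in PC20. Cspg4, which encodes the NG2 proteoglycan, was at 5.55 and 0.0994 CPM, and Rgs5 was at 1.82 CPM in PC5 with 0 UMIs in PC20. Abcc9 had 1 UMI in each library, Kcnj8 13 and 0, and Vtn 20 and 0. The collagen genes Col1a1 and Col3a1 reached 576 and 1158 CPM in PC5 and 6.04 and 101 CPM in PC20. Ptprc, which marks blood cells and microglia, had 1 UMI in PC5 and none in PC20. The cells are called PC5 and PC20 below, after their labels.

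In an endothelial cell these genes work at a few connected points. Cdh5 encodes VE-cadherin, the adhesion protein of endothelial junctions, where Pecam1 and the tight-junction protein Cldn5 also sit. Kdr and Flt1 encode VEGF receptors, Flt1 giving both a membrane receptor and a soluble decoy, and Tek and Tie1 encode the angiopoietin receptor and its partner. Eng encodes endoglin, a co-receptor for ligands of the TGF-beta and BMP family, while Cd34 and Emcn encode sialomucins of the cell surface. Several are known outside the endothelium as well: Eng in mesenchymal cells and Cd34 in fibroblast and blood progenitor cells. Erg, Fli1 and the SoxF factors Sox7, Sox17 and Sox18 are transcription factors of the endothelial lineage.

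The junction cadherin Cdh5 was abundant in PC5 and close to nothing in PC20. It had 37453 UMIs in PC5, or 168 CPM (166 to 170), and 5 UMIs in 5 cells of PC20, or 0.0262 CPM (0.00849 to 0.0611). The log2 ratio of PC5 over PC20 was 12.65 (11.43 to 14.27). Cdh5 was found in 73.2% of PC5 cells, and after thinning in 64.1% (63.1 to 65.1). The gene lies at chr8:104101625-104144511 on the plus strand in GRCm38.

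Eng followed in the same direction with a smaller gap. It had 21616 UMIs in PC5, or 96.9 CPM (95.6 to 98.2), and 522 UMIs in PC20, or 2.73 CPM (2.5 to 2.98), which gave a log2 ratio of 5.15 (5.02 to 5.28). It was found in 61.9% of thinned PC5 cells and 2.75% of thinned PC20 cells. The gene at chr2:32646595-32682669, on the plus strand, overlaps Fpgs, which is on the minus strand, and 3 small gene models. How reads in the overlaps were assigned was not tested.

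Cd34 showed the opposite order. It had 266 UMIs in PC5, or 1.19 CPM, and 40864 UMIs in PC20, or 214 CPM, for a log2 ratio of -7.49 (-7.67 to -7.31). A Cd34 UMI was present in 83.8% of thinned PC20 cells (82.7 to 84.9) and in 1.37% of thinned PC5 cells (1.14 to 1.63). The gene at chr1:194938819-194961279 overlaps the gene model Gm16897.

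The VEGF receptor genes were split between the libraries. Kdr had 2853 UMIs in PC5, or 12.8 CPM, and 13 UMIs in PC20, or 0.068 CPM, for a log2 ratio of 7.55 (6.78 to 8.47), and it was found in 975 of 8847 thinned PC5 cells. Flt1 was the 1 member present at a sizeable level in both: 17.6 CPM (3926 UMIs) in PC5 and 73.9 CPM (14115 UMIs) in PC20, with a log2 ratio of -2.07 (-2.12 to -2.02). Its share of thinned cells was 14.5% in PC5 and 47.1% in PC20. The deposited counts give 1 value per gene, so the soluble and membrane forms of Flt1 could not be told apart.

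The other members were lower. Emcn had 369 UMIs in PC5, or 1.65 CPM, and 0 UMIs of 191122251 in PC20. With 3 UMIs taken as the limit that a count of 0 allows (0.0157 CPM), PC5 was at least 105-fold higher. Emcn was found in 1.45% of thinned PC5 cells. Pecam1 had 121 UMIs in PC5 and 21 in PC20, Tek 37 and 3, Cldn5 14 and 8, and Tie1 5 and 1. In thinned cells Pecam1 was found in 0.441% of PC5 and 0.0894% of PC20, Tek in 0.181% and 0.0224%, Cldn5 in 0.0565% and none, and Tie1 in none. Genes of unrelated lineages gave the level to hold these against. Over 9 such genes, including Alb and Ins2, the highest thinned share was 0.0678% in PC5 and 0.0671% in PC20, with Gad2 left out of the list after its own 12.2% in PC20 was seen. Emcn and Pecam1 in PC5 were above that background with or without Gad2. Tek in PC5 was above it only without Gad2, whose own thinned share in PC5 was 0.181%, the same as that of Tek. Cldn5 and Tie1 in PC5 and all of Cdh5, Cldn5, Tek, Tie1 and Emcn in PC20 were below the background of the 9 genes.

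**Figure D1:**
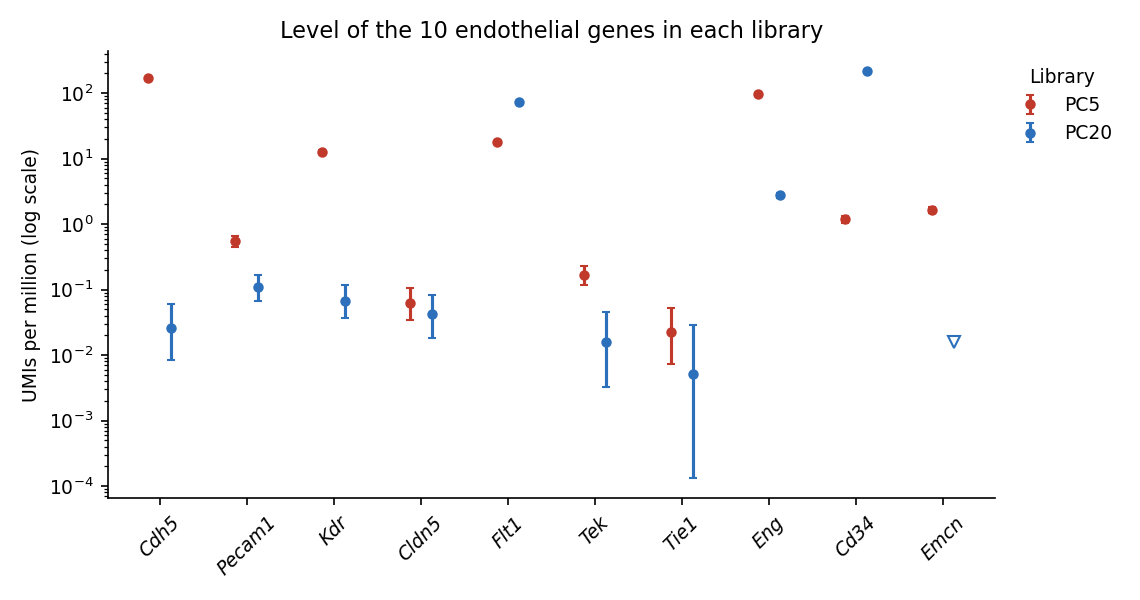
UMIs per 1000000 (CPM, log scale) of each of the 10 genes in PC5 (red) and PC20 (blue), 1 library each, with 95% counting intervals. The open triangle marks the limit that 0 Emcn UMIs allow in PC20. Cdh5, Eng and Kdr are high in PC5, Cd34 and Flt1 in PC20, and Pecam1, Cldn5, Tek and Tie1 stay below 1 CPM in both.

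The order of levels differed accordingly. In PC5 it ran Cdh5, Eng, Flt1, Kdr, Emcn, Cd34, Pecam1, Tek, Cldn5 and Tie1, with counting intervals that were apart for all neighbours except Cldn5 and Tie1. In PC20 it ran Cd34, Flt1, Eng and then Pecam1, and below Eng every neighbouring pair overlapped. These are levels in CPM of 3′ tags, 1 tag per molecule, which were not divided by gene length. Summed over the 10 genes the level was 299 CPM in PC5 and 291 CPM in PC20. Most of each came from genes known to be high: Cdh5 and Eng in PC5 (168 and 96.9 CPM) and Cd34 in PC20 (214 CPM). Nothing is therefore read from how close the sums are.

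Of the 5 members that passed the 10% filter, 3 had a log2 ratio of 3 or more (Cdh5, Eng, Kdr) and 1 of -3 or less (Cd34). Among all 10504 genes tested, 4.32% reached 3 or more and 2.97% reached -3 or less. At 5 and -5 the shares were 2.29% and 1.25%, and Cdh5, Eng and Kdr were past the first and Cd34 past the other. Because the members were chosen with these levels known, nothing is read from that count. The median log2 ratio of all tested genes was -0.03.

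The first bases before the start sites are shown for Eng and Cd34, which were high in opposite libraries, and for the VEGF receptor genes Kdr and Flt1. Each line is the 250 bases upstream of the RefSeq start on the gene's own strand, 5′ to 3′, from the RefSeq promoters of GRCm38.p6. They are chr2:32646345-32646594 (plus) for Eng, chr1:194938571-194938820 (plus) for Cd34, chr5:75978456-75978705 (minus) for Kdr and chr5:147726012-147726261 (minus) for Flt1. Capitals mark GGAA and its reverse complement TTCC, the core that ETS factors such as Erg and Fli1 bind.

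Eng: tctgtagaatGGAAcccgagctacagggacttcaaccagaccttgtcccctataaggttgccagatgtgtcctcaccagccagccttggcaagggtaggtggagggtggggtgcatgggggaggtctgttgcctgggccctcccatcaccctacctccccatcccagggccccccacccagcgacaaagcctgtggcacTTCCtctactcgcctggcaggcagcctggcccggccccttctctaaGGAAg
Cd34: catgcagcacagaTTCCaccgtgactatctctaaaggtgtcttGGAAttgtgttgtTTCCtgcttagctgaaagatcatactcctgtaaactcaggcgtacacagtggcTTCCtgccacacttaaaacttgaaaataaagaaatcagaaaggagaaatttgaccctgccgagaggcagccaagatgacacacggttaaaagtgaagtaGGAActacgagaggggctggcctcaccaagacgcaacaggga
Kdr: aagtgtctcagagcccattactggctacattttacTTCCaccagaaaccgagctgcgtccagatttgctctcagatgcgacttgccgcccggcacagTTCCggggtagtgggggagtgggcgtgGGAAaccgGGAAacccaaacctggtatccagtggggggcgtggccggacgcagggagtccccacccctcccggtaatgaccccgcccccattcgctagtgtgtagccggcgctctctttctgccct
Flt1: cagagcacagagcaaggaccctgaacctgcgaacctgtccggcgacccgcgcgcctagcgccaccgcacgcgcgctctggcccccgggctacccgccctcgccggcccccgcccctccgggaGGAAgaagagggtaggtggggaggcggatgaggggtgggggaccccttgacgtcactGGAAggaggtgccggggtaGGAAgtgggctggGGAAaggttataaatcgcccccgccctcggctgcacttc

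Of the 10 members, 8 had an entry in that table, and Cdh5 and Pecam1 had none. The ETS core occurred 3 times in the Eng window, 5 times in Cd34 and 4 times each in Kdr and Flt1. Among 32851 promoter windows of the same length, 93.4% held it at least once, with a median of 3, so its presence does not set these genes apart. The TATA box TATAAA, searched on both strands, was found in Flt1 and in none of the other 3, against 12.4% of all windows. GGGCGG, the SP core on both strands, occurred 2 times in Kdr, 3 times in Flt1 and in neither Eng nor Cd34, against 32.7% of all windows. GC content was 70.4% in Flt1, 62.4% in Eng, 61.6% in Kdr and 46.4% in Cd34, and the median of all windows was 52.4%.

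Most PC5 cells carried Cdh5 at a low count. After thinning, 35.9% of PC5 cells had 0 Cdh5 UMIs, 20.4% had 1, 32.8% had 2 to 4, 10.2% had 5 to 9 and 0.69% had 10 or more, up to 18 in a cell. The variance of Cdh5 over its mean was 2.44, above the middle range of 1.14 to 1.42 of 1248 genes within a factor of 2 of its mean. Eng was even across cells: 34.4% had 1 UMI, 26.7% had 2 to 4 and 0.75% had 5 to 9, with a variance over mean of 1.12 against a range of 1.09 to 1.27. Cd34 in PC20 had 2 to 4 UMIs in 48.5% of cells and a variance over mean of 1.51, above 1.14 to 1.44. Flt1 in PC20 also had 1.51, above 1.07 to 1.19.

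**Figure D2:**
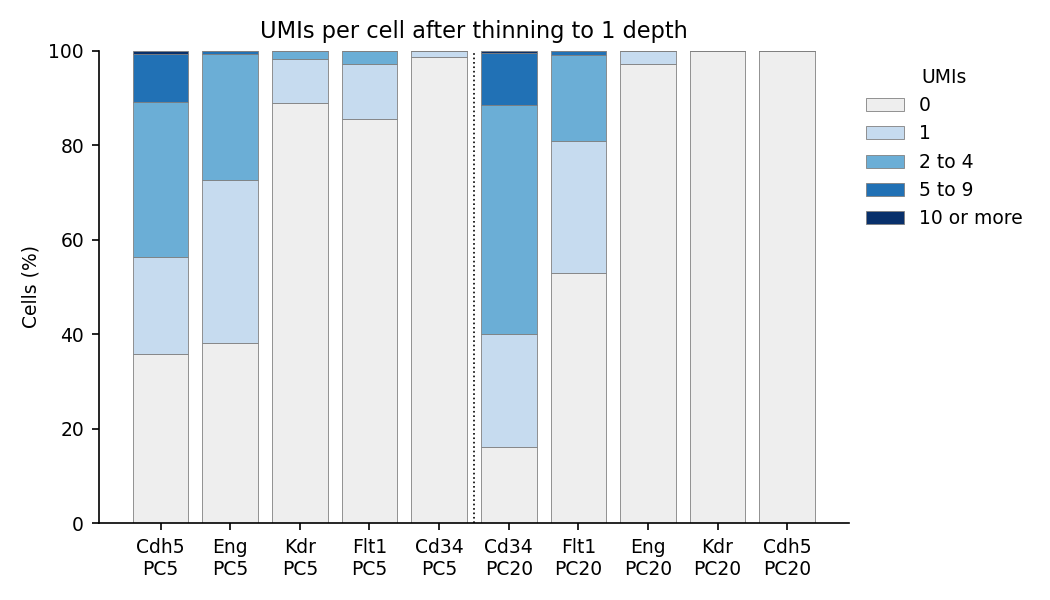
Share of thinned cells (%) with 0, 1, 2 to 4, 5 to 9 and 10 or more UMIs of Cdh5, Eng, Kdr, Flt1 and Cd34, PC5 left of the dotted line and PC20 right of it. The genes found in most cells of a library sit at a few UMIs per cell, and the same gene in the other library is almost wholly at 0, apart from Flt1.

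The cells with a Cdh5 UMI were then compared with the cells without one, within thinned PC5 (5672 and 3175 cells). A cell without a UMI may still hold the RNA, so these groups differ in level and not in presence. Kdr was found in 9.66% of the cells with Cdh5 (8.90 to 10.5) and 13.4% of those without (12.3 to 14.7). Its log2 ratio of UMIs per cell, with over without, was -0.52 (-0.69 to -0.35). Flt1 was found in 12.2% and 18.7%, a log2 ratio of -0.77 (-0.91 to -0.62). Both VEGF receptor genes were thus lower where Cdh5 was found. Of 11664 genes with a UMI in at least 1% of thinned PC5 cells, 1.68% had a log2 ratio of -0.5 or below in this split and 2.25% one of 0.5 or above.

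Eng did not move with Cdh5. It was found in 62.6% of the cells with Cdh5 and 60.7% of those without, a log2 ratio of 0.03 (-0.03 to 0.09). Emcn gave 0.43 (-0.09 to 0.97) and Cd34 0.37 (-0.19 to 0.95), on 150 and 129 thinned UMIs. Of the 150 Emcn UMIs, 10 were in 1 cell. Pecam1 gave 1.21 (0.06 to 2.53) on 33 UMIs in cells with Cdh5 and 8 in cells without.

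Of the 26 listed genes of the endothelial surface and junctions, 16 had a UMI in at least 1% of thinned PC5 cells. Of these, 6 had a log2 ratio of 0.5 or more with Cdh5 and 2 of -0.5 or less. Over all 11664 genes the shares were 2.25% and 1.68%, the background for each list in this paragraph. The junction genes Esam and Jam2 gave 0.82 (0.58 to 1.07) and 0.71 (0.56 to 0.86), and Jam2 was found in 20.4% against 12.9% of cells. Thbd, the thrombomodulin gene, gave 0.55 (0.49 to 0.61), and Esm1, Adgrl4 and Cd93 gave 0.88, 0.83 and 0.54. Mcam and Ly6c1 were lower with Cdh5, at -0.91 and -0.53. Of 8 transcription factors that could be compared, Klf2, a flow-responsive factor of endothelial cells, gave 0.57 (0.46 to 0.69), and the other 7 lay between the limits. Of 7 fibroblast genes, Lum, Dcn and Pi16 were at 0.5 or above, at 1.84, 0.96 and 1.70, and the other 4 lay between the limits, with Col1a1 at -0.01 and Ly6a at -0.33 (-0.37 to -0.29). Of 5 pericyte genes, Rgs5 at 1.91 (1.26 to 2.63) and Anpep at 0.58 were at 0.5 or above, Cspg4 was at -0.59, and Pdgfrb was at 0.07 (-0.03 to 0.16). Acta2 was lower with Cdh5, at -0.58. The cells with and without Cdh5 had medians of 23119 and 23029 UMIs before thinning and 2.53% and 2.77% mitochondrial UMIs, and the part these play was not tested.

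PC5 was next split by Eng. With Eng in 5475 cells and not in 3372, the log2 ratio was 0.08 (0.03 to 0.13) for Cdh5, 0.16 (-0.02 to 0.34) for Kdr and 0.03 (-0.12 to 0.17) for Flt1. Kdr was at 0.20 (0.03 to 0.38) with another thinning seed and 0.36 (0.18 to 0.53) in unthinned cells, and it was higher with Eng in 6 of 6 clusters. Emcn gave 0.43 (-0.08 to 0.96) and Cd34 -0.36 (-0.88 to 0.17), and 10 of the 150 thinned Emcn UMIs were in 1 cell. None of the 16 surface and junction genes and none of the 8 transcription factors passed 0.5 in either direction. Over all 11664 genes, 0.506% were at 0.5 or above and 0.334% at -0.5 or below.

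Kdr and Flt1 went together. Flt1 was found in 19.5% of PC5 cells with a Kdr UMI and 13.9% of those without, a log2 ratio of 0.46 (0.25 to 0.66). Of 11664 genes, 2.18% were at 0.5 or above in the Kdr split and 3.02% at -0.5 or below. The reverse split, by Flt1, gave Kdr a log2 ratio of 0.60 (0.39 to 0.81), where 1.34% of genes were at 0.5 or above and 1.71% at -0.5 or below. Cdh5 was lower in both splits, at -0.41 (-0.49 to -0.33) with Kdr and -0.42 (-0.49 to -0.35) with Flt1. Kdr and Flt1 were made leading genes after their values were seen.

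In PC20 the split was by Cd34, with 3749 thinned cells with a UMI and 725 without. Flt1 was found in 49.3% of the cells with Cd34 and 35.3% of those without, a log2 ratio of 0.72 (0.57 to 0.88). Among 11214 genes, 6.18% had a log2 ratio of 0.5 or more and 2.73% one of -0.5 or less. Splitting PC20 by Flt1 instead gave Cd34 a log2 ratio of 0.31 (0.26 to 0.37), and there 2.44% of genes were at 0.5 or above and 0.972% at -0.5 or below. With Cd34 as the leading gene, Eng gave 0.14 (-0.58 to 0.92). Of 14 surface and junction genes, 5 were at 0.5 or above and 1 was at -0.5 or below. Of the 5, Thbd at 0.63 (0.34 to 0.93) and Nos3, the endothelial nitric oxide synthase gene, at 0.76 (0.03 to 1.58) had intervals above 0. None of 9 transcription factors passed 0.5 in either direction. The cells with Cd34 had 2986 genes after thinning against 2879, 2.09% against 1.65% mitochondrial UMIs and 29.5% against 31.1% ribosomal protein UMIs, and the part of these in the result was not tested.

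**Figure D3:**
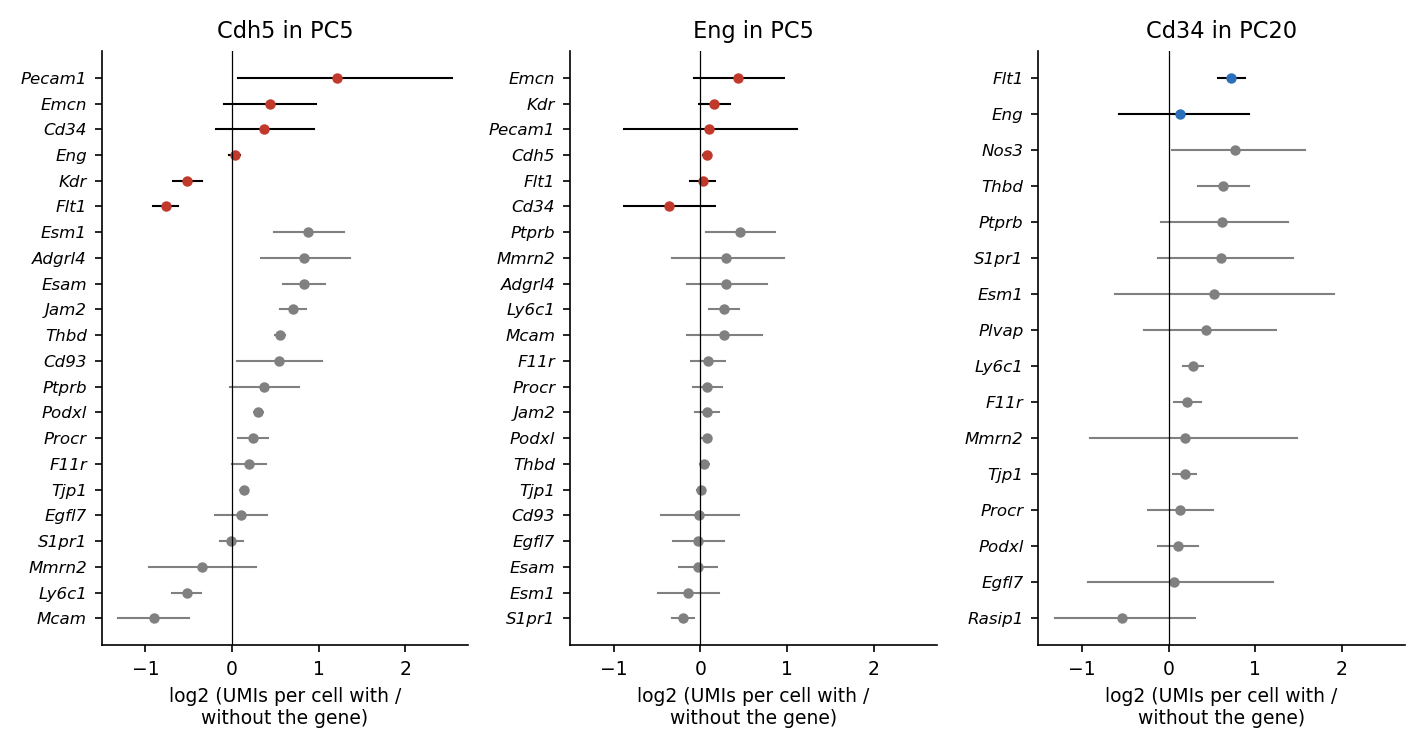
log2 ratio of UMIs per cell in thinned cells with over without a UMI of Cdh5 (PC5), Eng (PC5) and Cd34 (PC20), with 95% counting intervals. Coloured points are members with at least 40 thinned UMIs and grey points the listed surface and junction genes found in at least 1% of cells. Kdr and Flt1 lie left of 0 for Cdh5, all points lie between -0.5 and 0.5 for Eng, and Flt1 lies right of 0 for Cd34.

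Correlations across thinned cells were weak and are given as a description. Over 8847 PC5 cells, Cdh5 had r = 0.02 with Eng, -0.07 with Kdr and -0.10 with Flt1. Cells share a library and the counts are sparse, so values of this size carry little. For Flt1 in PC5, Cdh5 was nevertheless the lowest of 7447 genes. The genes most like Cdh5 were Rpl28 (r = 0.26), Bmp7 (0.24), the prolactin-family genes Prl2c3 (0.23) and Prl2c2 (0.22), whose reads may be split between near-identical copies, and Ccl2 (0.21). For Eng the highest were Ccng1, Icam1, Ctsd, Ccdc3 and Sulf2, none above 0.074. For Kdr they were Amotl2, Cyp26b1, Il6st, Slc4a4 and Vgll3 (0.11 to 0.13), and for Flt1 in PC5 Cd44, Thbs1, Prss23, Actb and Tgfb1 (0.06 to 0.08). Over 4474 PC20 cells, Cd34 was most like Ccnd1 (0.24), AA467197 (0.23), Anxa2 (0.22), Sparc (0.22) and Itgb1 (0.20), and Flt1 ranked 36 of 7289 with 0.16. For Flt1 in PC20 the highest were Scd2, Ccnd1, Sparc, Anxa2 and Dcbld2 (0.16 to 0.22), with Cd34 next.

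Next the members were counted per cell. With all UMIs, at least 1 of the 10 genes was present in 94.2% of the cells of PC5 and 96.5% of those of PC20, while 0.492% of PC5 cells (49) and none in PC20 held 5 or more. Without Cdh5, Eng and Cd34, 47 of 9950 PC5 cells (0.472%, 0.347 to 0.628) and 0 of 4749 PC20 cells held 3 or more of the other 7. A count of 0 allows a share of up to 0.0632%. Among the 47 cells, 46 had Flt1, 42 had Kdr and 33 had Emcn, while Pecam1 was in 12, Tek in 7, Cldn5 in 3 and Tie1 in 1. Cdh5 was in 39 of the 47 cells, Eng in 43 and Cd34 in 2. In the 5849 PC5 cells with none of the 7, Cdh5 was in 4289, Eng in 4438 and Cd34 in 134. The 47 cells were deep, with a median of 31010 UMIs against 19260 in the PC5 cells with none of the 7. At 1 depth the count was 5 of 8847. Of Pecam1, Cldn5, Tek, Tie1 and Emcn, 13 PC5 cells and no PC20 cell held 2 or more.

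A few single cells stood apart, and they were picked after their values were seen. In PC5, 6 cells had 2 or more Pecam1 UMIs, and in 3 of them the endothelial genes were concentrated. A cell with 9579 UMIs held 8 of the 10 members: 29 Cdh5, 11 Pecam1, 8 Emcn and 3 Flt1 UMIs, and 1 each of Kdr, Tie1, Eng and Cd34. It also had 16 Adgrl4, 7 Esam, 6 Cd93, 6 Egfl7, 2 Sox7 and 2 Sox18 UMIs, and 0 of Pdgfrb, Col1a1 and Col3a1. Of 68 listed endothelial and barrier genes it had a UMI of 29. A cell of 3332 UMIs held 14 Pecam1, 6 Cdh5, 9 Ptprb, 5 Adgrl4 and 35 Ly6c1 UMIs. That cell also had 51 UMIs of Ly6a, which was read with the fibroblast list. Of the rest of that list it held 1 Col3a1 UMI and nothing else, and it had 0 of Pdgfrb. The cell of 9579 UMIs had 9 Ly6a UMIs and none of the rest of that list. The last of these, a cell of 17376 UMIs, held 17 Emcn, 9 Cdh5, 10 Adgrl4, 7 Sox17, 5 Esam and 1 Erg UMIs, and also 3 Pdgfra, 2 Col1a1 and 9 Col3a1 UMIs. The single Erg UMI and 7 of the 10 Sox17 UMIs of PC5 were in that cell. The other 3 of the 6 cells had 2 Pecam1 UMIs each, 10 to 15 Col1a1 UMIs, and a UMI of 14, 21 and 16 of the 68 listed genes. The cells of 3332 and 17376 UMIs had a UMI of 23 and 24 of them. Leaving out the 6 cells moved the log2 ratio of Cdh5 from 12.65 to 12.64 and left that of Eng at 5.15. The 6 cells held few of the 37453 Cdh5 and 21616 Eng UMIs of PC5, so these ratios could hardly move. Pecam1 and Emcn, with 121 and 369 UMIs in PC5, were not recomputed without the 6 cells.

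The genes that accompany these members in endothelial cells were read from the same lists. Of 18 transcription factors, 9 could be tested, and 4 were higher in PC5 and 2 in PC20 by a log2 ratio of 1 or more. Among all tested genes 17.9% and 19.1% were, and the list counts that follow use the same limit. Fli1, an ETS factor, was at 8.31 CPM in PC5 with 1 UMI in PC20, and Klf2 was at 29.9 and 2.99 CPM (log2 ratio 3.32). The highest of the list in PC5 were Nr2f2 (224 CPM), Klf4 (148) and Elk3 (111), and in PC20 Klf4 (93.5), Nr2f2 (79.4) and Ets2 (37.9). Ets2 and Mecom were higher in PC20, at log2 ratios of -3.47 and -4.75. Sox7 had 92 UMIs in PC5 and 29 in PC20, Hhex 84 and 214, and Lmo2 38 and 5. The factors of the list with 10 UMIs or fewer in both libraries were Erg, with 1 UMI in PC5 and 0 in PC20, and 5 more. Tal1 had 4 and 0, Lyl1 2 and 2, Sox17 10 and 0, Sox18 4 and 6 and Etv2 4 and 2.

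Of the 26 surface and junction genes, 11 could be tested, 6 higher in PC5 and 3 in PC20, with a median log2 ratio of 1.31. The background here and for the barrier genes below was 17.9% and 19.1% of all tested genes. The highest in PC5 were Tjp1 (195 and 78.5 CPM in PC5 and PC20), Podxl (172 and 23.8), a relative of Cd34, and Thbd (115 and 21.3). Jam2 had 19.3 CPM in PC5 and 0.764 in PC20 (log2 ratio 4.66). In PC20 the highest were Ly6c1 (104 CPM), Tjp1 and F11r (61 CPM). Ly6c1, F11r and Nos3 were the genes higher in PC20, Nos3 at 0.498 and 3.33 CPM. S1pr1 was at 21.3 and 3.16 CPM and Egfl7 at 4.52 and 1.40 CPM. Cd93 had 424 and 9 UMIs, Adgrl4 449 and 1, and Plvap 15 and 565. Icam2, Robo4, Clec14a, Vwf and Aplnr had at most 30 UMIs in either library. Of the 14 blood-brain barrier genes, 6 could be tested, 3 higher in PC5 and 2 in PC20. Foxf2, a transcription factor of brain pericytes, was at 22.5 CPM in PC5 with 1 UMI in PC20, and the glucose transporter gene Slc2a1 was at 22.3 and 125 CPM. The efflux transporter gene Abcg2 was at 75.5 and 33.4 CPM, the transferrin receptor gene Tfrc at 41.3 and 26.0, and Itm2a at 39.6 CPM in PC5 with a log2 ratio of 1.84.

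**Figure D4:**
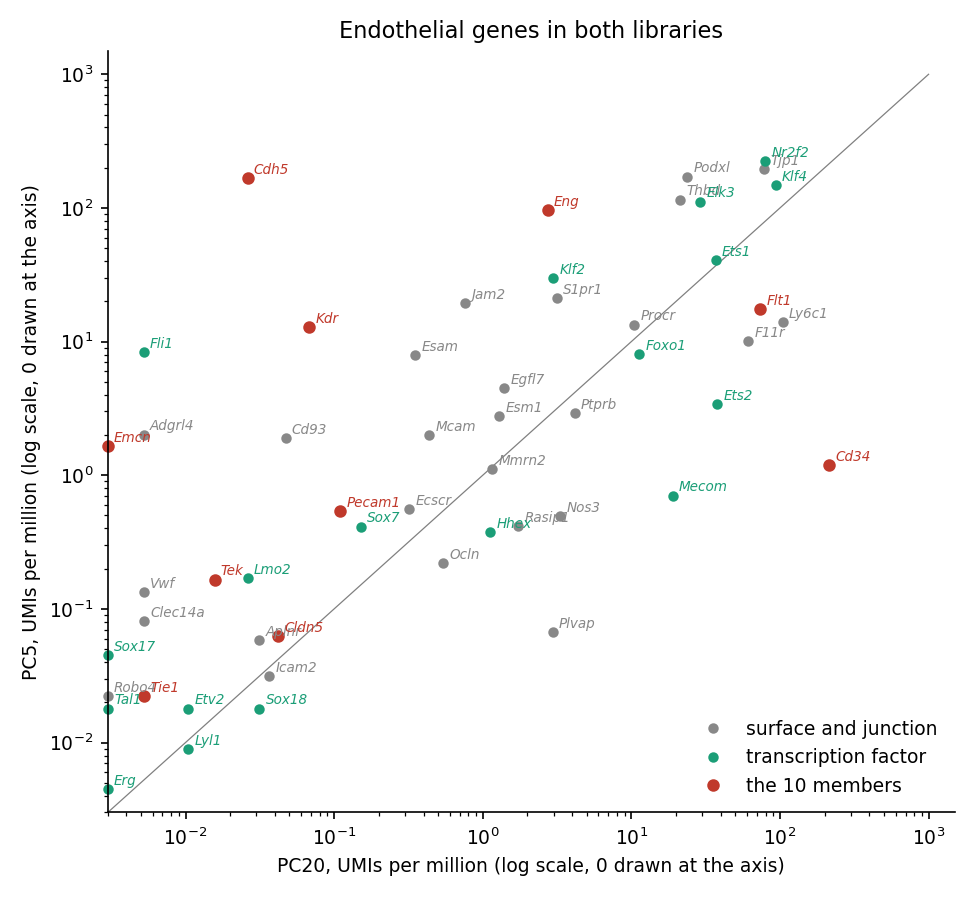
CPM in PC20 (x axis) and PC5 (y axis), both log scales, of the 10 members (red), the listed surface and junction genes (grey) and the listed transcription factors (green), with genes at 0 drawn on the axis and the line of equal level in grey. Cdh5, Eng, Kdr and Fli1 lie above the line and Cd34, Flt1 and Plvap below it, while Erg, Sox17, Tal1 and Tie1 sit in the lower left corner.

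Ligands and partners of the members were read next. Of 9 genes of the VEGF axis 8 could be tested, 3 higher in PC5 and 1 in PC20, with a median log2 ratio of 0.03. Over all tested genes the shares were 17.9% and 19.1%. Vegfa was high in both (175 and 205 CPM), as was Vegfb (65.2 and 109 CPM). The lymphatic ligand gene Vegfd was at 50.5 CPM in PC5 and 3.78 in PC20, and its receptor gene Flt4 at 7.64 and 0.424 CPM. The co-receptor gene Nrp2 had the opposite order, at 0.489 and 160 CPM, which is a log2 ratio of -8.36 (-8.64 to -8.08). Of the 5 angiopoietin genes, Angpt2 was at 27.3 CPM in PC5 and 2.84 in PC20, Angpt1 at 3.01 and 0.753, and Ptprb at 2.91 and 4.16.

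Of 20 genes around endoglin, 17 could be tested, 6 higher in PC5 and 3 in PC20, beside 17.9% and 19.1% of all tested genes. The type II receptor gene Tgfbr2 was at 268 CPM in PC5 and 29.7 in PC20, and Tgfbr3, the betaglycan gene, at 115 and 13.9. Acvrl1, the receptor that works with endoglin in endothelium, was at 9.27 and 0.476 CPM, with a log2 ratio of 4.28, so it lay on the same side as Eng. Within PC5, Acvrl1 was higher in cells with Cdh5 (0.74, 0.52 to 0.96). In the split by Eng it gave 0.16 (-0.04 to 0.36). There, none of the 17 genes of this list that could be compared passed 0.5 in either direction. Over all 11664 genes only 0.506% were at 0.5 or above and 0.334% at -0.5 or below. A count of none among 17 genes is therefore not read as a result about this list. The target genes Id1 and Id3 went in opposite directions, at 32.6 and 115 CPM for Id1 and 382 and 103 CPM for Id3. Smad4, the shared signal transducer, was at 107 and 94.5 CPM. Gdf2 and Bmp10, which encode the endoglin ligands BMP9 and BMP10, had 0 UMIs in both libraries.

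All 5 genes of the cadherin-bound proteins could be tested, 3 of them higher in PC5, as were 17.9% of all tested genes. Jup, the plakoglobin gene, led them at 34.2 and 4.78 CPM. The catenin genes Ctnna1, Ctnnb1 and Ctnnd1 were at 203, 176 and 166 CPM in PC5 and 146, 117 and 45.5 CPM in PC20. Of 15 other cadherin genes 4 could be tested. Cdh2, the N-cadherin gene of mural and mesenchymal cells, was at 230 and 50.4 CPM, and Cdh11 at 10.3 and 0.539 CPM. Cdh13 was higher in PC20, at 9.88 and 48.3 CPM. Cdh5 was thus the second highest of these cadherins in PC5 and below Cdh2, Cdh13 and Cdh11, among others, in PC20. The selectin genes Sele and Selp, whose proteins bind Cd34, had at most 33 UMIs in either library, and the adaptor gene Crkl was at 30.2 and 17.4 CPM.

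Lists of other cell types were read beside these, with the same background of 17.9% and 19.1% of all tested genes. Of 8 fibroblast genes 5 could be tested, 4 higher in PC5 and 1, Ly6a, in PC20 (228 and 722 CPM), and Pdgfra was at 88.6 and 0.131 CPM. Of 4 smooth muscle genes 2 could be tested: Tagln, an actin-binding protein gene, at 219 and 0.23 CPM, and Acta2 at 62.8 and 49.2 CPM. Of 8 pericyte genes 3 could be tested, Pdgfrb, Cspg4 and Notch3, and all were higher in PC5. Among 4 blood progenitor genes, Runx1 was at 59.1 and 136 CPM and Gata2 at 15.4 and 1.25, while Kit had 123 and 2 UMIs and Gata1 2 and 0. Cd34 and Runx1 were thus both higher in PC20 and Gata2 and Kit in PC5. Of 6 genes of microglia and blood cells none could be tested, and their summed level was 4.07 CPM in PC5 and 0.811 in PC20, mostly Cx3cr1, with Cd48 at 0 in both. Of 4 astrocyte genes 2 could be tested, Slc4a4 at 143 and 229 CPM and Aldh1l1 at 7.35 and 0.0262, and Gfap had 97 and 0 UMIs. The 3 oligodendrocyte genes summed to 0.915 and 0.895 CPM, with Mobp at 0. The part of these cell types in the levels of the members was not tested.

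The members were also read by cluster. Seurat gave 16 clusters, which are referred to by number, and the cells of each came largely from 1 library, the most mixed being cluster 13 with 194 PC20 cells of 230. In the 9 clusters made of PC5 cells, Cdh5 ranged from 30.0 CPM (23.5 to 37.8) in cluster 11 to 311 CPM (303 to 319) in cluster 5. Cluster 11 was led by Acta2 and AY036118 and had a median of 5663.5 UMIs, and cluster 5 was led by Trf, Il33 and Mmp3. The cluster with the most Cdh5 had little Kdr, at 6.29 CPM (5.22 to 7.52), and cluster 1 had the most Kdr, at 15.9 CPM (14.9 to 16.9), with 139 CPM of Cdh5. Eng varied less, from 42.5 CPM in cluster 11 to 156 CPM (135 to 181) in cluster 15. Pecam1 was highest in cluster 15, at 11.8 CPM (6.47 to 19.8), where 11 of its 14 UMIs came from the cell of 9579 UMIs described above.

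In the 7 clusters made of PC20 cells, Cd34 ranged from 133 CPM (117 to 151) in cluster 13 to 252 CPM (247 to 257) in cluster 7. Cluster 13 was led by AY036118, Gm42418 and Lars2 and had a median of 6826 UMIs, and 52 of its cells could be thinned. Flt1 ranged from 30.7 CPM (23.1 to 39.9) in cluster 13 to 88.4 CPM (85.8 to 91.0) in cluster 2. No cluster of either library had a member, Erg, Sox17, Sox18, Egfl7 or Esam among its 10 leading genes. The splits of single cells were repeated within clusters. Of the 6 PC5 clusters with at least 50 cells on each side, Flt1 was lower with Cdh5 in 6 and Kdr in 5. Cd34 was higher with Cdh5 in 6 of them, Pecam1 in 5, Emcn in 4 and Eng in 3. Cd34, Pecam1 and Emcn rest on 129, 41 and 150 thinned UMIs in all. Of the 6 such PC20 clusters, Flt1 was higher with Cd34 in 6.

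**Figure D5:**
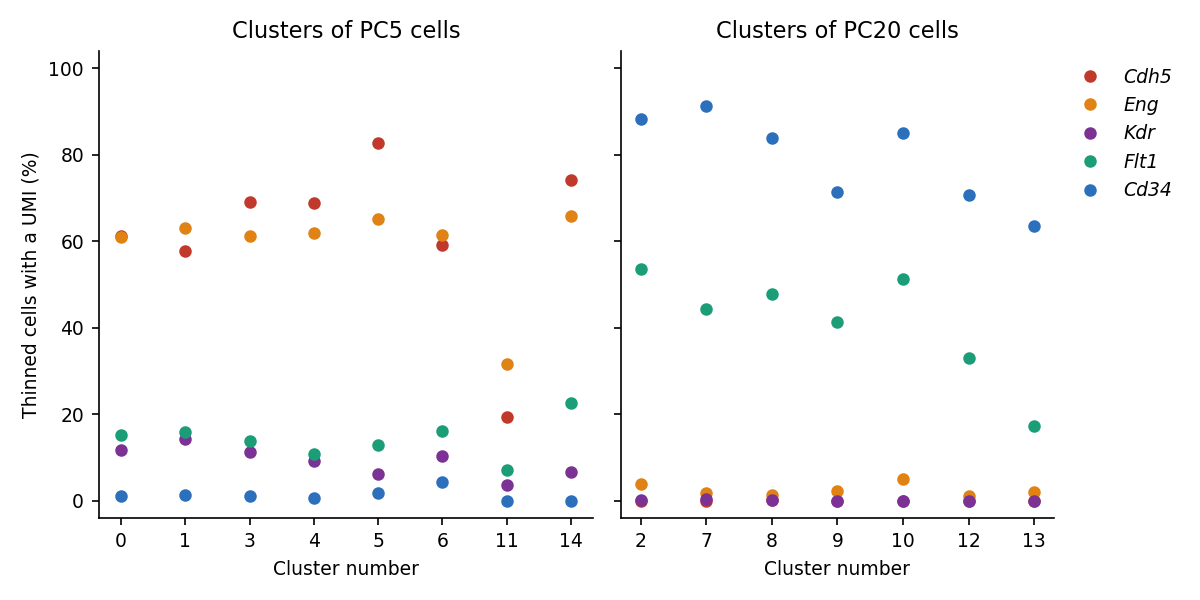
Share of thinned cells (%) with a UMI of Cdh5, Eng, Kdr, Flt1 and Cd34 in each cluster of at least 50 thinned cells, PC5 clusters on the left and PC20 clusters on the right. Cdh5 and Eng are found throughout the PC5 clusters, lowest in cluster 11, and Cd34 and Flt1 throughout the PC20 clusters, lowest in cluster 13. Before thinning, clusters 11 and 13 had medians of 5663.5 and 6826 UMIs.

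The members were also read in cycling cells. In PC5, Cdh5 was at 154 CPM in the 4475 cells with a Mki67 or Top2a UMI and 183 CPM in the 5475 without, and Eng at 95.5 and 98.4 CPM. In PC20, Cd34 was at 216 and 206 CPM and Flt1 at 73.5 and 75.5 CPM. Eng in PC20 was at 2.46 CPM (2.22 to 2.72) in cells with such a UMI and 3.83 CPM (3.23 to 4.5) in those without. Cdh5 in PC5 and Eng in PC20 were thus lower in the cells with a Mki67 or Top2a UMI. In the split of thinned PC5 cells by Cdh5, Mki67 had a log2 ratio of -0.43 (-0.55 to -0.31). It gave 0.30 (0.12 to 0.48) in the split by Kdr and 0.36 (0.21 to 0.51) in the split by Flt1. Deeper cells are more likely to show a Mki67 or Top2a UMI, so the comparison of cells with and without such a UMI also follows depth.

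The genes next to Cdh5, Eng and Cd34 were read as well. Among all tested genes, 17.9% were higher in PC5 and 19.1% in PC20 by a log2 ratio of 1 or more. Within 500 kb of Cdh5, 8 genes could be tested, 2 higher in PC5 and 2 in PC20 by that limit. The highest in PC5 were Dync1li2, Fam96b and Cmtm3, at log2 ratios of 0.97, -1.05 and 2.60, and in PC20 Fam96b, Nae1 and Dync1li2. Around Eng 25 could be tested, 8 higher in PC5 and 1, the ribosomal protein gene Rpl12, in PC20. The highest in both libraries were Rpl12, Swi5 (0.22) and Prrc2b (1.08). Ak1, 11.5 kb from Eng, had a log2 ratio of 2.04. Around Cd34 the tested genes were Plxna2 (1.56) and Cr1l (-1.18). None of the neighbours that passed the 10% filter reached a log2 ratio of 3 in either direction. Among all tested genes, 4.32% reached 3 or more and 2.97% -3 or less, so few would be looked for among so few neighbours. Below that filter, Terb1 near Cdh5 had a log2 ratio of 4.25 (89 and 4 UMIs), and near Eng Fam102a had 3.76 (947 and 60 UMIs) and Sh2d3c -5.08 (16 and 465 UMIs), all 3 named after their values were seen.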

How the data were processed

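Single-cell RNA-seq (10x Genomics 3′ chemistry) was available for PC5 and PC20, 1 library each. The UMI counts per gene and barcode were deposited by the authors, per the labels from Cell Ranger 5.0 on mm10, and doublets were not removed here. From these counts, barcodes were retained above 1000 genes and below 20% mitochondrial UMIs, UMIs were summed per library (223054273 in PC5, 191122251 in PC20) and expressed per 1000000 (CPM). Intervals are exact Poisson for levels, exact conditional binomial for ratios and Clopper-Pearson for shares. They cover counting error only, and with 1 library per passage no test was made. Each cell was thinned without replacement to 10500 UMIs, and shallower cells were left out. Cells were clustered with Seurat 5.3.0 in R 4.3.3, and other steps used Python 3.11.15 with numpy 2.4.6 and scipy 1.17.1. Gene positions came from GENCODE M21, which held 31011 of 31053 identifiers. The code was tested on simulated data.

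The members and gene lists were chosen with earlier results of these data known. The passage ratio was read for genes detected in 10% or more of cells in 1 or both libraries. Text names all members, the 3 genes of each list with the highest CPM per library, those at or past a log2 ratio of 3 with at least 10 CPM, the 5 genes with the highest correlation and the 3 neighbours with the most CPM. Other genes were chosen after their values were seen. Settings tried besides these are in the closing section.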

Additional observations from a re-analysis of the deposited data

How the results depend on the processing

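Of 89 recomputed values, 80 stayed within the counting interval of the main value (for counts of cells, within a factor of 1.5), 9 moved and none reversed. Counts of cells could not reverse. A change of sign was scored as a reversal only where the main interval excluded 0. The passage ratios of Cdh5, Eng and Cd34 were the values these genes were chosen by, and they lie far from 0. Nothing is therefore read from the absence of reversals. The Cdh5 log2 ratio ranged from 11.75 to 12.98 over 10 alternatives, including one without the shared barcodes, chosen after seeing the data. The Eng log2 ratio moved from 5.15 to 4.69 in cells without a Mki67 or Top2a UMI, and that of Cd34 from -7.49 to -7.28 in cells thinned to 1 depth. The 47 PC5 cells with 3 or more of the 7 other members became 5 in thinned cells and 866 with at least 2 of the 7, and the 0 PC20 cells became 34 with at least 2. In the split by Cdh5, Flt1 moved from -0.77 to -0.61 with another thinning seed. In the split by Eng, Kdr moved from 0.16 to 0.36 in unthinned cells, and Flt1 in the Cd34 split from 0.72 to 1.23. Flt1 in the Kdr split moved from 0.46 to 0.85 with at least 2 Kdr UMIs. The cause of these moves was not tested. Eng in the Cdh5 split ranged from -0.02 to 0.04 and so took either sign. Splits within clusters were added after seeing the data, and pooled over clusters they kept their sign, while single clusters differed: Flt1 in the Eng split was lower in 4 of 6, and Eng in the Cdh5 split in 3 of 6. Genes near 3 UMIs cannot be ranked at this depth. No paired analysis was possible because each passage is 1 library and no test was made.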
